A study of Mus musculus with 10 samples.

Results

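The 2 strands of the mouse miR-378 hairpin, mmu-miR-378 and mmu-miR-378* (miR-378 and miR-378* below), were followed across a set of miRNA profiles of C2C12 myoblasts, a cell line derived from skeletal muscle of the C3H mouse. Both were found by name among the 209 miRNA assays of the qPCR-array card called Array B and among the 617 mouse miRNA probes of a microarray. None of the 375 miRNA assays of the other card, Array A, carried either name. Array B was run on 2 cards with pre-amplification and 2 cards without it, and the microarray was run on 2 chips without pre-amplification. Array A was run on 4 cards without pre-amplification, from 2 reverse transcription reactions on 2 days, and its values below are means over these cards. The strands were selected on their Ct with and without pre-amplification on Array B, where both gained few cycles, so those values are given as a description, with no test.

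All cards and chips received aliquots of the same RNA of proliferating, untreated cells. The spread between replicates is therefore technical and carries no difference between cultures. Of the miRNAs listed as skeletal muscle markers (miR-1, miR-133a, miR-133b, miR-206 and miR-486), 5 of 6 assays had a mean cycle threshold (Ct) of 35 or less without pre-amplification, with a lowest value of 25.95 for miR-206. MiR-206 was on Array B and the others on Array A, which was run from a different amount of RNA. The mouse assay of miR-1 lay above that limit, at 35.38, while the rat-named assay rno-miR-1 stood at 31.34. None of the 20 assays listed for embryonic stem cells, the 5 for epithelium, the 1 for liver or the 1 for neurons reached that limit, while 2 of the 4 listed for blood cells did, with a lowest value of 30.63.

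A miRNA hairpin is cut by Dicer into a short duplex, and its strands are separated when 1 of them is loaded into an Argonaute protein. In the naming used on these cards the star marks the strand regarded as the minor product. The hairpin of miR-378 lies within Ppargc1b, the gene of a transcriptional co-activator of mitochondrial and oxidative metabolism, and miR-378 is known for its place in muscle differentiation and energy metabolism. The TaqMan assays copy each mature strand with its own stem-loop primer, and the cDNA is then quantified by PCR as a Ct, which is lower when more template is present. Pre-amplification is an additional multiplex PCR on that cDNA before it is diluted and loaded on the card.

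The mature sequences of the miRNAs against which the strands are set below were taken from RefSeq (GRCm38.p6). All 7 were identical to the target sequences listed for the microarray probes, and their seeds (bases 2 to 8, in capitals) were 7 different ones. MiR-22 and miR-877 are shown with their star strands because theirs were the other hairpins with both arms detectable on Array B.
miR-22: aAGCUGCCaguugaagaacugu
miR-22*: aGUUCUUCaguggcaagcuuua
miR-877: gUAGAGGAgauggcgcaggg
miR-877*: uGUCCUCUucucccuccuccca
The muscle miRNA miR-206 is shown as the miRNA nearest to miR-378 in Ct, and miR-31* as the abundant miRNA with the highest cycle gain.
miR-206: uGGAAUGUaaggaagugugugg
miR-31*: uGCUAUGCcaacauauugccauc
MiR-692 is shown as the mouse miRNA nearest to both strands in cycle gain.
miR-692: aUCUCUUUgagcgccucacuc

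On Array B, miR-378 had a Ct of 20.32 and 20.81 with pre-amplification, against 25.32 and 25.31 without it. The means were 20.57 ± 0.346 with and 25.32 ± 0.00707 without pre-amplification (SD, n = 2 cards each). By mean Ct miR-378 was the 11th lowest of the 209 miRNA assays with pre-amplification and the 2nd lowest without it. The star strand had a Ct of 25.76 and 26.07 with pre-amplification, against 30.76 and 30.58 without it. Its means were 25.91 ± 0.220 with and 30.67 ± 0.129 without pre-amplification (SD, n = 2 cards each), the 49th and the 22nd lowest values on the card. For either strand the cards of both conditions did not overlap, which also held for every other detectable miRNA, as set out below.

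The cycle gain, the mean Ct without minus the mean Ct with pre-amplification, was 4.75 cycles for miR-378 and 4.76 cycles for miR-378*. A larger gain means that pre-amplification brought the assay further ahead. Between the cards numbered 1 the gains were 5.00 cycles for miR-378 and 5.01 for miR-378*, and between the cards numbered 2 they were 4.50 and 4.51. The strands thus differed from each other by 0.0115 cycles in their mean gain. Both gained about the same amount less on the cards numbered 2 than on those numbered 1, with differences of -0.50 and -0.49 cycles, and the median of that difference over all 60 detectable miRNAs was -0.51. A miRNA is called detectable here when its mean Ct without pre-amplification was 35 or less. All 60 had a lower Ct on each pre-amplified card than on each card without it. The differences ran from 2.06 to 11.58 cycles over these combinations of cards. Separate conditions are therefore not particular to the strands.

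**Figure D1:**
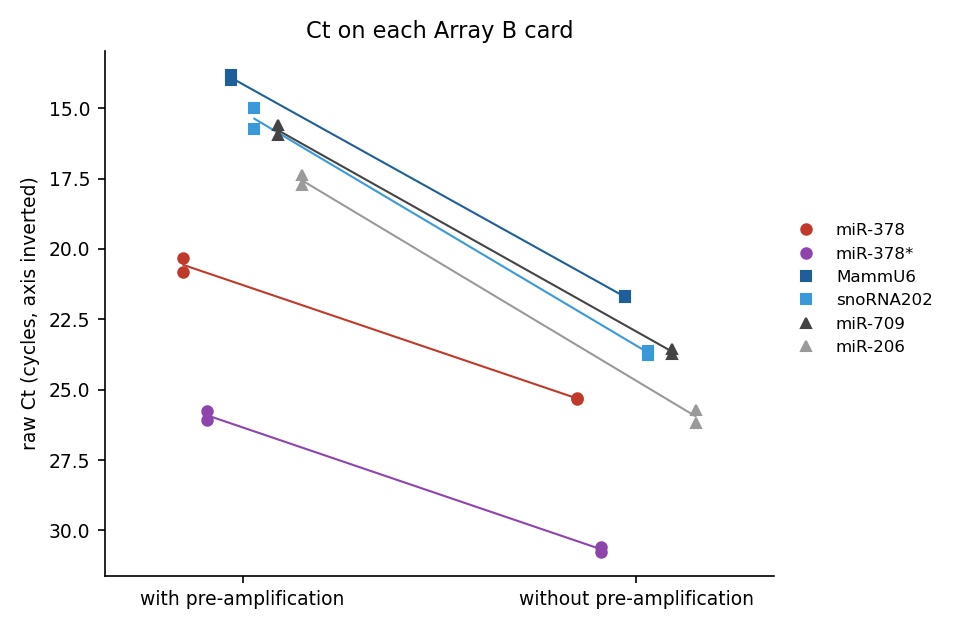
Raw Ct (cycles, inverted axis) on each Array B card with and without pre-amplification for both strands of miR-378, the controls MammU6 and snoRNA202 and the miRNAs miR-709 and miR-206; points are cards and lines join the means. The lines of miR-378 and miR-378* run parallel to each other and are less steep than the other 4, with gains of 4.75 and 4.76 cycles.

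The 6 endogenous controls are small nuclear, nucleolar and cytoplasmic RNAs that are amplified by the same chemistry. MammU6, the U6 spliceosomal RNA, had a Ct of 13.80 and 14.01 with pre-amplification, against 21.71 and 21.67 without it. Its gain of 7.79 cycles was the lowest of the controls. The others gained 7.95 cycles (snoRNA429), 8.19 (snoRNA135), 8.22 (U87), 8.32 (snoRNA202) and 8.55 (Y1, a cytoplasmic RNA), with a median over all 6 of 8.21. The gain of miR-378 lay 3.04 cycles below that of MammU6 and 3.46 below the control median, and that of miR-378* lay 3.03 and 3.45 cycles below. Over all combinations of a pre-amplified card with one that was not, the gains ran from 4.50 to 5.01 cycles for the strands and from 7.66 to 8.82 for the controls. The deposited files held 2 different values for U87 on the first pre-amplified card. Its raw Ct was 21.57, while the deposited ΔCt table implied 18.35, with which the gain of U87 would be 9.83 cycles. The raw value was used here.

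Apart from miR-378, 16 miRNAs averaged a Ct of at most 30 without pre-amplification, and they gained 7.06 to 8.46 cycles, with a median of 7.77. The lowest of them was miR-135a*, with a Ct of 21.96 and 22.48 with pre-amplification, against 29.50 and 29.06 without it. Its gain of 7.06 cycles exceeded that of miR-378 by 2.32 cycles and that of miR-378* by 2.304. The highest was miR-31*, with a gain of 8.46 cycles. Across card combinations the gains of these 16 miRNAs ran from 6.59 to 8.79 cycles. They lay above those of the strands, which were chosen for gaining few cycles on these cards. MiR-378*, with a mean Ct of 30.67, was itself outside the range of this group. Among the less abundant miRNAs, the gains of rno-miR-20b-5p (3.85 to 5.58 cycles) and miR-692 (4.31 to 5.52) did overlap with those of the strands.

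Each strand also gained less than the 4 miRNAs nearest to it in Ct. Next to miR-378 were miR-206 (gain 8.39 cycles), miR-720 (7.48), miR-374 (7.64) and miR-709 (7.86). MiR-206, a miRNA of the skeletal muscle lineage, had a Ct of 17.38 and 17.72 with pre-amplification, against 26.17 and 25.72 without it. It therefore stood ahead of miR-378 with pre-amplification and behind it without. Next to miR-378* were rno-miR-7a* (gain 7.26 cycles), miR-101b (7.69), miR-674* (7.33) and miR-183* (8.11). The Ct at which the strands started differed by 5.36 cycles, and their gains differed by less than the spread between cards.

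**Figure D2:**
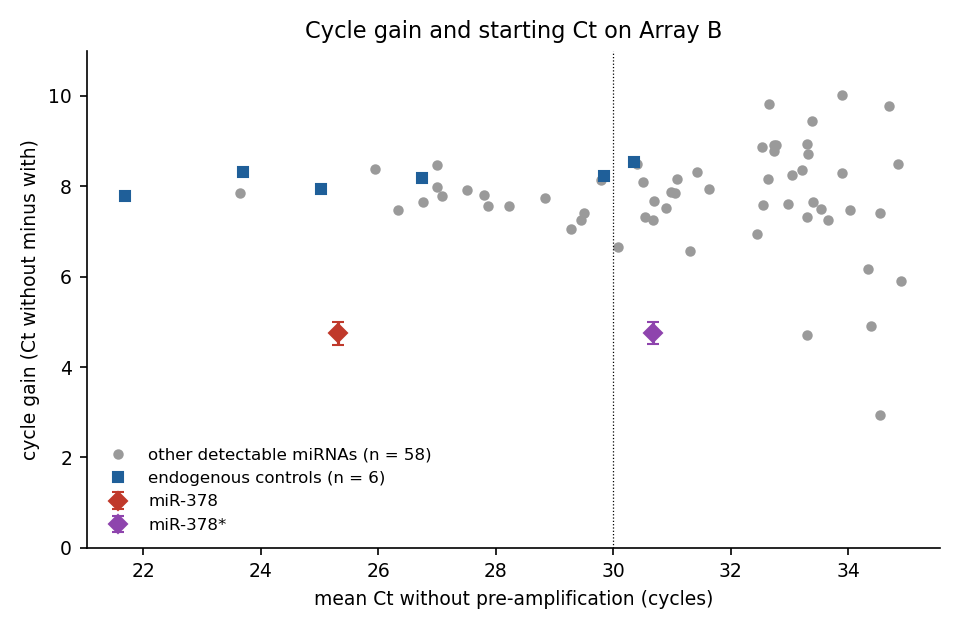
Cycle gain (Ct without minus Ct with pre-amplification) against the mean Ct without pre-amplification on Array B, for both strands of miR-378, 58 other detectable miRNAs and 6 endogenous controls; bars give the lowest and highest gain over card combinations and the dotted line marks a Ct of 30. Both strands sit near 4.75 cycles, below every control and every other miRNA left of the line. MiR-378* itself lies right of the line, where 2 of the 42 other miRNAs gained less.

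Over the 58 other detectable miRNAs the gain ran from 2.93 to 10.02 cycles, with a median of 7.80. Only rno-miR-20b-5p, with 4.71 cycles, and rno-miR-463, with 2.93, gained less than both strands; rno-miR-463 was singled out after its values were seen. The 5 miRNAs nearest to the strands in gain were rno-miR-20b-5p, miR-692 (4.91 cycles), miR-704 (5.91), rno-miR-99a* (6.17) and miR-678 (6.57). The lowest mean Ct among the 5 without pre-amplification was 31.31, that of miR-678. MiR-692 had a Ct of 29.07 and 29.88 with pre-amplification, against 34.60 and 34.19 without it, and its gain was 5.52 cycles on the cards numbered 1 and 4.31 on those numbered 2. That of rno-miR-20b-5p was 5.58 and 3.85 cycles. MiR-678 gained 6.90 and 6.24 cycles on the same pairs of cards, and miR-704 gained 6.23 and 5.59. The SDs of Ct of both conditions were combined as the root of their summed squares, without pairing cards by number. This spread was 0.346 cycles for miR-378 and 0.255 for miR-378*, against 0.329 for miR-678, 0.340 for miR-704, 0.639 for miR-692, 0.889 for rno-miR-20b-5p and 1.07 for rno-miR-99a*.

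Array B carried both arms of 10 hairpins, and in 3 of them both arms were detectable. MiR-22 and miR-22* gained 8.50 and 8.29 cycles, and miR-877 and miR-877* gained 7.62 and 7.95. The gain of the star strand minus that of the named strand was 0.0115 cycles for miR-378, -0.20 for miR-22 and 0.33 for miR-877. Gains thus lay close together within each of the 3 hairpins, and those of miR-378, chosen for low gains, were the lowest of the 3. The 16 other miRNAs with a Ct of 30 or less, no 2 of them arms of 1 hairpin, had gains with an SD of 0.38 cycles. Differences of the size seen for miR-22 and miR-877 are therefore not particular to arms of the same hairpin.

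The gap between the arms on each card is another view of the same Ct values and, like the gain, uses no reference RNA. MiR-378* came up 5.43 and 5.26 cycles after miR-378 with pre-amplification, against 5.44 and 5.27 cycles without it. The order and size of the gap were thus kept on all 4 cards. For miR-22 the gap was 3.73 and 3.66 cycles with pre-amplification, against 3.74 and 3.25 without it. MiR-877* came up before miR-877, with gaps of -1.79 and -1.55 cycles with pre-amplification, against -0.78 and -1.89 without it. Because each strand has its own primers and probe, the gap is a distance between Ct values and not a ratio of copies.

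**Figure D3:**
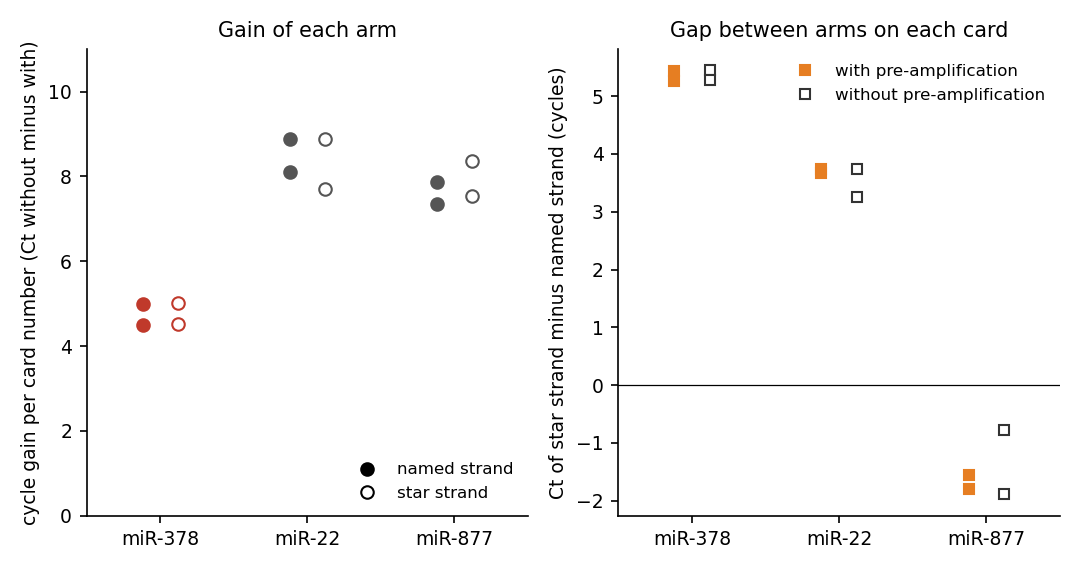
Left, cycle gain between cards of the same number (Ct without minus Ct with pre-amplification) for the named and star strands of the 3 hairpins with both arms detectable on Array B; right, Ct of the star strand minus Ct of the named strand on each card with and without pre-amplification. Both arms of miR-378 lie between 4.50 and 5.01 cycles, and the gap between them is 5.26 to 5.44 cycles on all 4 cards.

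Expressed as ΔCt, the Ct minus that of MammU6 on the same card, miR-378 stood at 6.52 and 6.80 with pre-amplification, against 3.61 and 3.64 without it. The star strand stood at 11.95 and 12.06 with pre-amplification, against 9.05 and 8.91 without it. A higher ΔCt means a lower level relative to MammU6. The shift, with minus without pre-amplification, was 3.04 cycles for miR-378 (standard error 0.198) and 3.03 for miR-378* (standard error 0.184), with standard errors from the limma fit. If each cycle doubled the product, these shifts would read as levels relative to MammU6 that are 8.22-fold and 8.15-fold lower with pre-amplification. As all cards received the same RNA, they are a difference between assay conditions and not in the RNA. The 16 other miRNAs of a Ct of 30 or less shifted by -0.68 to 0.72 cycles, with a median of 0.02.

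In the fit over all 60 detectable miRNAs, limma with Benjamini-Hochberg adjustment called 15 (25.0%) at an adjusted p under 0.05, in 9 cases (15.0%) with a higher ΔCt in the pre-amplified cards and in 6 (10.0%) with a lower one. Both strands belong to the contrast by which they were chosen, and nothing is read from their place in that count. With the card number as a replicate block 4 miRNAs were called. As all cards came from the same RNA, these p-values measure technical spread only.

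The target sequences listed for the microarray probes gave the base composition of 54 of the 60 detectable miRNAs. MiR-378 had a GC content of 52.4% over 21 bases and miR-378* one of 59.1% over 22 bases in a range of 31.8% to 71.4%, and 32 and 39 of the 54 had a lower one. The 10 other miRNAs with a GC content from 52.4% to 59.1% gained 4.91 to 8.31 cycles, with a median of 7.32. Across the 54 miRNAs GC content and gain correlated at r = -0.13, a description across assays that share the same cards. The longest run of Watson-Crick complementary bases between both mature strands was 9 for miR-378, 9 for miR-22 and 6 for miR-877. RefSeq lists 3 further mouse miRNAs, miR-378b, miR-378c and miR-378d, that differ from miR-378 at 1 base of the aligned stretch. None of them had an assay by its name on Array B. Whether the microarray carried a probe by these names was not checked, and how far they are read by the assay of miR-378 was not tested.

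On the microarrays each probe was spotted 5 times, and the level of a strand was set against the empty spots of the same chip. The background-subtracted signals of miR-378 on chip 1 were 375, 336, 407, 373 and 419, and on chip 2 they were 280, 280, 329, 295 and 267. All 10 spots exceeded 3 standard deviations of the 579 empty spots, which came to 58.5 on chip 1 and 45.2 on chip 2. The background-subtracted signals of the chips did not overlap, with means over spots of 382 ± 32.6 on chip 1 and 290 ± 23.5 on chip 2 (SD, n = 5 spots). Before background subtraction the scanner densities did overlap, at 561 to 648 on chip 1 and 565 to 632 on chip 2. The median background over the chip was 227 on chip 1 and 303 on chip 2. The log2 ratio of chip 2 over chip 1 was -0.39, and 28 of the 137 probes with a signal of 32 or more on both chips had a lower one.

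The spots of miR-378* gave 20.0, 17.0, 27.1, 13.4 and 35.5 on chip 1, and 46.3, 29.8, 28.0, 45.8 and 95.6 on chip 2. None of the 5 spots on chip 1 and 3 of the 5 on chip 2 exceeded 3 standard deviations of the empty spots. That count depends on the cutoff. The standard deviation on chip 1 includes an empty spot with a scanner density of 575, against a median of 225. By an upper percentile of the density of the empty spots (249.9 on chip 1 and 345.2 on chip 2), 3 of the 5 spots passed on each chip. The mean signals of miR-378* were 22.6 ± 8.82 on chip 1 and 49.1 ± 27.4 on chip 2 (SD, n = 5 spots), and the signals of both chips overlapped. The SD divided by the mean signal was 0.390 on chip 1 and 0.558 on chip 2. The study's rule for detection also sets an upper limit on this ratio, and only the value of chip 2 exceeded it. The star strand was thus near the empty spots on the microarrays, while its Ct on Array B was below 35 on all 4 cards.

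**Figure D4:**
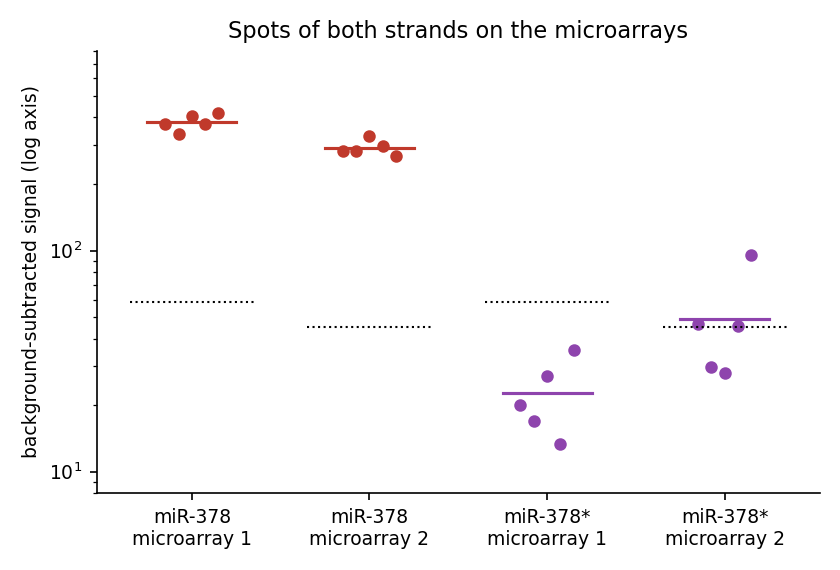
Background-subtracted signal (log axis) of the 5 spots of miR-378 and of miR-378* on each microarray; bars are means and dotted lines are 3 standard deviations of the empty spots of that chip. All spots of miR-378 lie above the line, against none of 5 of miR-378* on chip 1 and 3 of 5 on chip 2.

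Among other miRNAs encoded within introns of metabolic or myosin genes (miR-33*, miR-208, miR-208b and miR-499), none had a mean Ct of 35 or less without pre-amplification. MiR-33*, from an intron of a sterol regulatory gene, was closest, with a mean Ct of 27.17 with pre-amplification, against 35.13 without it. Of the 10 assays listed for muscle miRNAs, 5 were detectable without pre-amplification, among them miR-133b at 28.85 and miR-486 at 28.97 on Array A. Array A was run from a different amount of RNA and without pre-amplification, so these values are not compared with those of miR-378.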

How the data were processed

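Array B Ct values of 4 cards were analysed, 2 per condition. The authors deposited raw Ct values from stem-loop reverse transcription and TaqMan PCR, with 40 for wells without amplification, and a table of ΔCt against MammU6. ΔCt was recomputed from the Ct values. Of 860 values 2 differed from the deposited table by over 0.002 cycles, U87 and miR-30a* on the first pre-amplified card, while those of both strands matched to within 0.001. For the microarrays the authors deposited a background-subtracted intensity for every spot, and the scanner density. The Array A ΔCt table was not used. Per the methods, the pre-amplified cDNA was diluted before loading, so a cycle gain includes that dilution.

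ΔCt was tested with limma 3.58.1 in R 4.3.3, and the step was tested on simulated data. Python 3.11.15, pandas 2.3.3, numpy 2.4.6 and matplotlib 3.10.9 were used. The sample labels give the Array B cards only the numbers 1 and 2. In the study's scheme the pre-amplified and the other card of a number come from 1 reverse transcription reaction. That the numbers in the labels are those of the scheme is inferred, and on that basis the number was used as a block. The deviations of same-numbered cards from the group means correlated at -0.01 and so do not show the pairing themselves. The miRNAs named were the strands, the 6 controls, the miRNAs with a Ct of 30 or less, for each strand the 4 nearest in Ct, the 5 nearest in gain, hairpins with both arms detectable, and lists of muscle miRNAs, intronic miRNAs and cell type markers. Members and lists were chosen with earlier results of these data known. The sequences of the strands are not reported here.

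Alternatives were other references of ΔCt, other limits on Ct, the replicate block, the methods' test, each card or chip left out, normexp with quantile normalization, no background correction and the median of spots. The card median as the reference for the count of calls, the deposited ΔCt, and U87 as it implies were added after seeing the data.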

Additional observations from a re-analysis of the deposited data

How the results depend on the processing

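With the other endogenous controls as the reference, the shift of ΔCt with pre-amplification was 3.50 cycles for miR-378 and 3.49 for miR-378*, and with U87 as in the deposited ΔCt table, an alternative chosen after seeing the data, it was 3.82 and 3.81. With the card mean it was 2.89 and 2.88. With the card median it moved by less than the spread between cards. The replicate block cannot change the shift in this balanced layout, and the deposited ΔCt of both strands matched the recomputed one to within 0.001. Leaving out each card in turn gave 2.90 to 3.18 cycles for miR-378 and 2.96 to 3.10 for miR-378*. The shift kept its direction under each of these alternatives. The count of called miRNAs was less stable. It was 15 with MammU6 as the reference (9 with a higher and 6 with a lower ΔCt), 26 with the other controls (23 higher and 3 lower), 18 with U87 as deposited (16 higher and 2 lower), 20 with the card mean (9 higher and 11 lower) and 16 with the card median, chosen after seeing the data. With a Ct limit of 30 it was 5 of 17, with no limit 19 of 132, with the card number as a replicate block 4, and by the methods' Welch test at 0.01 it was 3. Leaving out a card gave 8 to 28 calls, with 9 and 8 without the first and the second pre-amplified card and 28 without the second card that was not pre-amplified; the cause was not tested. On the microarrays the mean signal of miR-378 was 336 as deposited, 406 with normexp and quantile normalization, and 600.3 with no background correction, and that of miR-378* was 35.8, 110.2 and 302. With 2 cards per condition and 2 chips, the precision is limited by their number.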
